A study of Mus musculus with 6 samples.

Results

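Matrix metalloproteinases and their tissue inhibitors were followed in the soleus of C57Bl/6 mice 1 day after reloading. The members were every probe that the platform annotation gives to Mmp2, Mmp9, Mmp14, Timp1, Timp2 or Timp3, which came to 6 genes with 1 probe each, out of 203 genes named on the array. The probes were picked by gene symbol, and the genes were chosen with earlier results of these data known. The data are 6 expression arrays, replicates 1 to 6 of 1 group. The mice are titled wild type, the muscle is labelled reloaded, and RNA came from cryosections of the muscle, with 3 micrograms of total RNA per sample. No other condition was analysed here, so each gene is described by its values on the 6 arrays, by how much they differed and by the genes that followed it. The labels do not say whether the samples came from separate animals. The p-values therefore measure only how paired values went together over these samples, whose differences may be technical.

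Metalloproteinases are zinc enzymes that cut proteins of the extracellular matrix, most of them made as inactive precursors. Mmp2 and Mmp9 encode the gelatinases, which cut denatured collagen and basement membrane collagen, and Mmp14 encodes a membrane-bound collagenase that activates the Mmp2 precursor. As a family, the tissue inhibitors bind the active site of metalloproteinases. Not every inhibitor need act on every protease that it is paired with here. The Timp2 protein also bridges Mmp14 to the Mmp2 precursor during activation, the Timp1 protein binds the Mmp9 precursor, and the Timp3 protein is held in the matrix and also inhibits ADAM proteases. In muscle these genes are known mainly from fibroblasts, vessels, inflammatory cells and satellite cells around the fibres. The arrays measure RNA and not enzyme activity.

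All 3 inhibitors and Mmp14 were measured above noise on every array, Mmp2 lay close to noise on most arrays, and Mmp9 was within noise on every array. Timp1, Timp2 and Mmp14 varied together from sample to sample, with r from 0.88 to 0.98 and nearly fixed ratios within the array, though no correlation passed adjustment over all gene pairs. Timp3 varied with the fibre genes, but also with many other genes and with the summed intensity of the array. Mmp2 was high on 1 array. Between samples, RNA from fewer cells of a type and less RNA per cell cannot be told apart.

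The upstream sequences of the inhibitors and of Mmp14 are shown because 3 of these genes moved together and Timp3 did not. Of the 6 members, 4 were found by gene ID in the RefSeq promoter table of build GRCm38.p6. Each line gives the 100 bases before the gene's start, 5′ to 3′, with matches to the GC box GGGCGG, read on both strands, in capitals.
Timp1, chrX:20870066-20870165, plus strand: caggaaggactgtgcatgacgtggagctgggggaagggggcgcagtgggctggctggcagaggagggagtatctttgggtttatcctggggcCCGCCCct
Timp2, chr11:118355412-118355511, minus strand: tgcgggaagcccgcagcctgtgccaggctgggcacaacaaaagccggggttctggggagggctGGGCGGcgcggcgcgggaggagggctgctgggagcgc
Mmp14, chr14:54431498-54431597, plus strand: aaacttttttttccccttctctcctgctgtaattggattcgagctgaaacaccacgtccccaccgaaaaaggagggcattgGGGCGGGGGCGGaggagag
Timp3, chr10:86300312-86300411, plus strand: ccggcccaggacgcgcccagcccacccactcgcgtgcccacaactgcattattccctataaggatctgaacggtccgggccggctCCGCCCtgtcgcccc

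A GC box stood in all 4 windows, with 2 adjoining, non-overlapping matches in Mmp14 and 1 match in each inhibitor, and in 24.7% of the 32851 promoters of the table over the same 100 bases. The genes that moved together and Timp3 were therefore alike in this motif. The TATA letters TATAAA, read on both strands, were in none of the 4 windows and in 5.56% of all promoters. The AP-1 letters TGANTCA, also read on both strands, were in none of the 4 whole entries, which run from 250 bases before to 50 bases after the start, and in 7.81% of all entries. The share of G and C was 65.0% in Timp1, 75.0% in Timp2, 54.0% in Mmp14 and 69.0% in Timp3, against a median of 55% over all promoters. These matches describe the letters in the windows and not binding.

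The arrays differed in brightness. Summed over all 223 probes, the deposited intensity, which has arbitrary units, was 165.3 for replicate 1 and 13.8 for replicate 6, and the other 4 arrays lay from 35.2 to 41.3. Intensities were log2-transformed and each array was centred on its median over the 175 probes above 0 on all arrays, so that a level of 0 is that median. The size of the most negative value on an array served as its noise bound. Replicate 1 had a bound of 0.0144, and the other arrays had bounds from 0.0011 to 0.0028. Each bound rests on the lowest probe of its array. On replicate 1 that value was the one of Il1b (-0.0144), whereas Mmp8, for example, stood at -0.0070. Statements about noise on replicate 1 therefore depend on an extreme value and may overstate the noise of most probes. All 7 fibre marker genes on the array (Myh7, Myh2, Myh1, Myh4, Des, Ttn and Mb) exceeded the bound on all 6 arrays.

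Of the 6 members, 5 were above 0 on all arrays and 4 above the noise bound on all arrays. Over all probes these shares were 78.5% and 58.3%, so the detection of the members was near that of the array as a whole. Only the 5 members above 0 on all arrays have log2 levels, and Mmp9 is described in deposited units.

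The gelatinase Mmp9 gave no signal beyond noise. Its deposited intensities on replicates 1 to 6 were -0.0025, 0.0007, -0.0018, -0.0006, -0.0024 and -0.0009. It was above 0 on 1 of 6 arrays and above the noise bound on 0 of 6. This does not show that the transcript was absent. With Mmp9 at the noise bound, the intensity ratio of Mmp9 to its inhibitor Timp1 could be at most 0.239 on replicate 1, 0.141 on replicate 2, 0.097 on replicate 3, 0.0571 on replicate 4, 0.138 on replicate 5 and 0.145 on replicate 6. Ratios between probes depend on how strongly each probe binds and are not ratios of transcripts. The panel held 1 leukocyte marker from the fixed list, Il1b, an inflammatory cytokine, which was above 0 on 0 of 6 arrays and therefore gives no level to set beside Mmp9.

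The gelatinase Mmp2 was high on 1 array and near noise on the others. Its deposited intensities were 0.0082, 0.0033, 0.0037, 0.0039, 0.0037 and 0.0111 on replicates 1 to 6. Replicate 6, the dimmest array, held the highest value, which was 10.1 times its noise bound. Replicate 1 was under its bound, and replicates 2 to 5 were between 1.32 and 2.79 times theirs. On the median-centred log2 scale Mmp2 was at -2.98, -2.18, -2.06, -2.06, -2.19 and 0.17, with a mean of -1.89 ± 1.06 (SD, n = 6). Replicates 2 to 5 lay within a narrow band and replicate 6 stood far above it. The mean and SD take replicate 1 at its measured value, and with that array set to its bound the highest array exceeded the lowest 5.12-fold. In deposited units replicate 6 cannot be ranked highest, since the bound of replicate 1, 0.0144, lies above its 0.0111. Without replicate 6 the SD of Mmp2 was 0.39.

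The collagenase Mmp14 was higher on 3 arrays than on the other 3 after median centring, but not on every scale. Its deposited intensities were 0.0218, 0.0049, 0.0117, 0.0120, 0.0102 and 0.0039 on replicates 1 to 6, between 1.51 and 8.57 times the noise bound. The median-centred log2 levels were -1.57, -1.61, -0.40, -0.44, -0.73 and -1.34, with a mean of -1.02 ± 0.56 (SD, n = 6). Replicates 3, 4 and 5 were the high ones and replicates 1, 2 and 6 the low ones, a 2.33-fold range. Replicate 1, among the low ones here, was highest in deposited units and only 1.51 times its noise bound.

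The inhibitor Timp1 was high on the same arrays as Mmp14 after median centring, but it ordered the low arrays in reverse. Its deposited intensities were 0.0603, 0.0149, 0.0268, 0.0245, 0.0203 and 0.0076, and its log2 levels -0.10, -0.01, 0.80, 0.59, 0.26 and -0.38, with a mean of 0.19 ± 0.44 (SD, n = 6). Replicate 3 was highest and replicate 6 lowest, a 2.27-fold range. Timp2, the inhibitor that takes part in Mmp2 activation, had deposited intensities of 0.1298, 0.0301, 0.0706, 0.0560, 0.0415 and 0.0172. Its log2 levels were 1.00, 1.00, 2.20, 1.78, 1.30 and 0.80, with a mean of 1.35 ± 0.54 (SD, n = 6). Replicate 3 was again highest and replicate 6 lowest, a 2.64-fold range. The order of the 6 samples by Timp2 was the same as by Timp1, though Timp2 on replicates 1 and 2 was equal as printed (1.00). Replicate 3 was highest for Mmp14, Timp1 and Timp2 after median centring and quantile normalization, whereas it was replicate 1 in deposited units and replicate 4 relative to 28S.

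Timp3, the matrix-bound inhibitor, had the highest SD of the inhibitors over all 6 arrays, and replicate 6 decided this. Its deposited intensities were 0.2146, 0.0360, 0.0403, 0.0338, 0.0215 and 0.0073, between 6.64 and 24.1 times the noise bound. The log2 levels were 1.73, 1.26, 1.39, 1.05, 0.35 and -0.44, with a mean of 0.89 ± 0.80 (SD, n = 6). Replicates 1 to 4 were high, replicate 5 lower and replicate 6 lowest, a 4.50-fold range. In deposited units the range was 29.4-fold, against 7.55-fold for Timp2. Without replicate 6 the SD of Timp3 was 0.51 and that of Timp2 0.52.

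**Figure D1:**
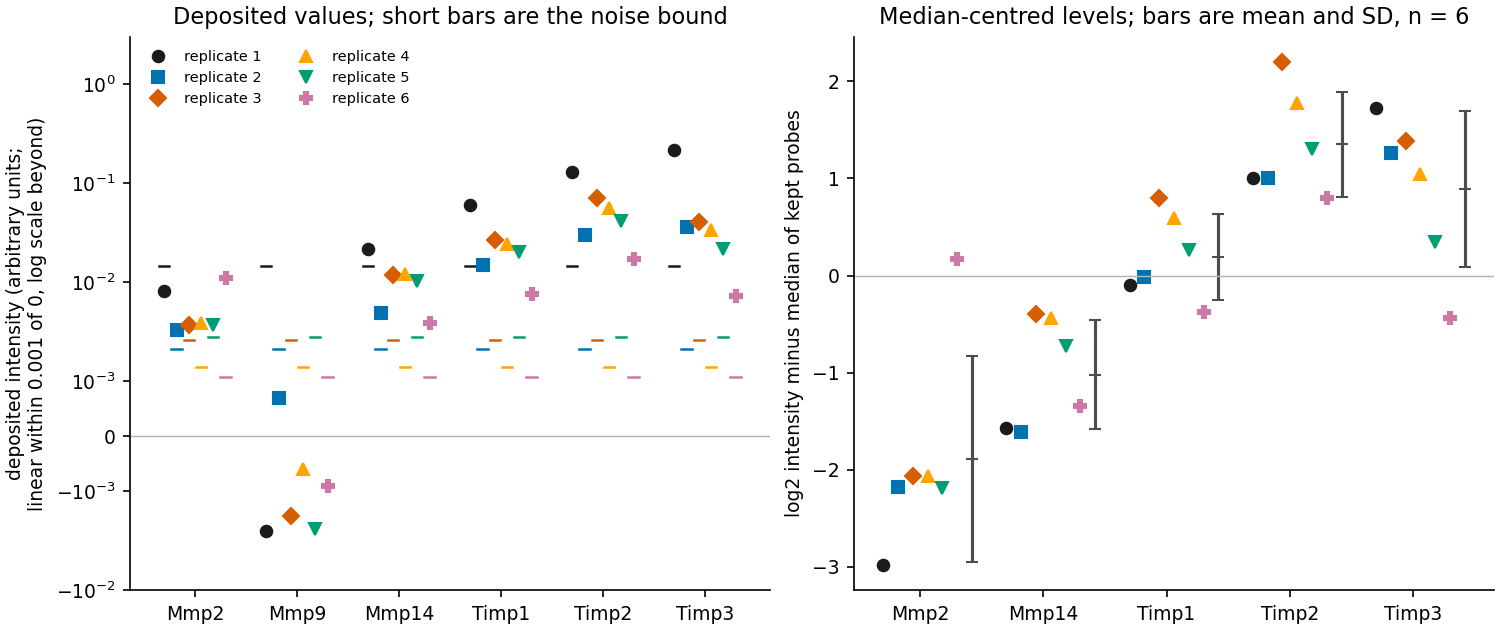
Left, deposited intensity of each member on the 6 arrays (arbitrary units, symmetric log axis), with short bars at each array's noise bound. Right, median-centred log2 levels of the 5 members above 0 on all arrays, with mean and SD (n = 6). Mmp9 lies under the bounds on every array, Mmp2 stands out on replicate 6, and Mmp14, Timp1 and Timp2 are highest on replicate 1 as deposited and on replicate 3 after centring.

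The median SD of the 5 members was 0.56 log2 units, against 0.64 over all 162 named genes above 0 on all arrays, of which the middle 50% lay between 0.48 and 0.95. Of these genes, 22.8% had a smaller SD than Timp1, 35.2% a smaller one than Timp2, 39.5% than Mmp14, 63.6% than Timp3 and 80.2% than Mmp2. The members thus ran from among the more even genes to among the more variable ones. The SD depended on how the arrays were scaled. The members' median SD was 0.99 with no scaling and 0.86 relative to 28S.

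Ratios of members within an array are free of the array's scale. The ratio of Timp1 to Timp2 was 0.465, 0.495, 0.380, 0.438, 0.489 and 0.442 on replicates 1 to 6. All 6 ratios lay within a 1.30-fold range. Median-centred levels ranged 2.27-fold for Timp1 and 2.64-fold for Timp2. Deposited values, which also carry the brightness of the array, ranged 7.93-fold for Timp1 and 7.55-fold for Timp2. The SD of the log2 ratio was 0.14, equal to 1.10-fold. Of the 13041 pairs among the 162 genes, 14 had a smaller SD, and the median pair had 0.93, equal to 1.91-fold. These pairs include genes near noise, since 123 of the 162 genes were above the bound on all arrays. How far signal strength sets the place of Timp1, Timp2 or Mmp14 among the pairs was not tested. With noise as large as the bound in both genes, the ratio could have been as low as 0.318 and as high as 0.647 on replicate 1, the array with the widest interval.

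The protease Mmp14 kept near-constant ratios to the same inhibitors. Its ratio to Timp2 was 0.168, 0.163, 0.166, 0.214, 0.246 and 0.227, a 1.51-fold range with an SD of 0.26 in log2 units. Replicates 1, 2 and 3 gave the lower ratios and replicates 4, 5 and 6 the higher ones, without overlap. The ratio to Timp1 was 0.362, 0.329, 0.437, 0.490, 0.502 and 0.513, a 1.56-fold range with an SD of 0.27. Of all gene pairs, 1.81% and 1.99% had smaller SDs than these. Differences of this size were within noise, since on replicate 1 a bound-sized error allowed Mmp14 to Timp2 ratios from 0.0513 to 0.314.

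Ratios to Timp3 were not constant. Mmp14 to Timp3 was 0.102, 0.136, 0.290, 0.355, 0.474 and 0.534 on replicates 1 to 6, a 5.26-fold range (SD 0.98). Timp1 to Timp3 ranged 3.71-fold (SD 0.73) and Timp2 to Timp3 3.90-fold (SD 0.77). In all 3 ratios replicate 1, the brightest array, was lowest and replicate 6, the dimmest, highest. For Timp2 to Timp3 the intervals allowed by the noise bound did not overlap between these arrays, with 0.504 to 0.720 on replicate 1 and 1.92 to 2.95 on replicate 6. SDs of this size were close to the median pair.

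Mmp2 was set apart from every other member by replicate 6. Its ratio to Timp2 was 0.110 on replicate 2, 0.0524 on replicate 3, 0.0696 on replicate 4, 0.0892 on replicate 5 and 0.645 on replicate 6, and at most 0.111 on replicate 1, where Mmp2 was under the bound. Replicate 6 exceeded the highest of the others 5.82-fold, and 2.79-fold when each value was moved by its noise bound against the difference. The SD of the log2 ratio was 1.33 over all arrays and 0.42 without replicate 6. Against Timp1 and Timp3 the excess on replicate 6 was 6.12-fold and 8.84-fold, or 2.33-fold and 3.42-fold with noise allowed for. Against Mmp14 it was 4.23-fold, and with noise allowed for replicate 6 no longer exceeded replicate 1 (0.655-fold), where Mmp2 was under the bound. It still exceeded replicates 2 to 5. The lowest Mmp2 to Mmp14 ratio allowed on replicate 6 was 2, and the highest allowed on those arrays was 1.93, on replicate 2.

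The median SD over the 6 protease to inhibitor ratios measured on all arrays, of 9 in all, was 1.14, against 0.93 over all gene pairs. The remaining 3 ratios involve Mmp9. That median joined even ratios (Mmp14 to Timp1 and Timp2) with wide ones, and without replicate 6 it was 0.36.

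**Figure D2:**
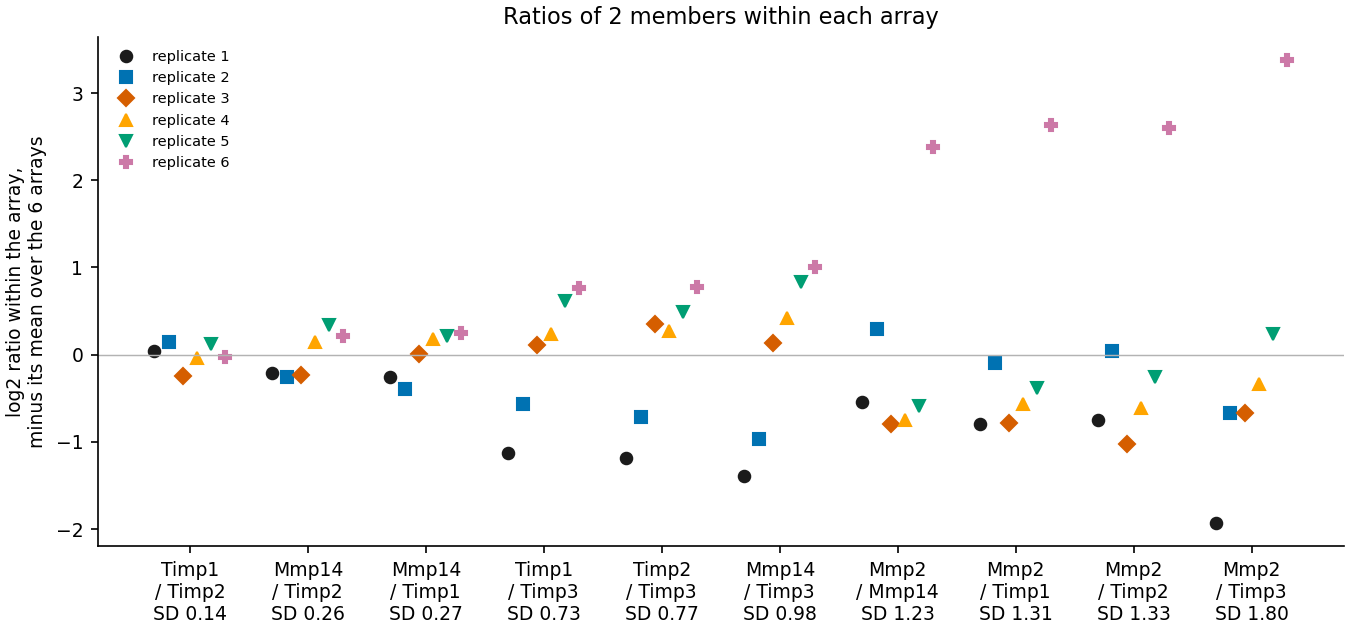
Log2 ratio of members within each array, shown as the difference from the mean over the 6 arrays (vertical axis, log2 units), in order of SD. The points of Timp1 to Timp2 (SD 0.14) lie closest together, and replicate 6 stands above the others in all 4 ratios that involve Mmp2.

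**Figure D3:**
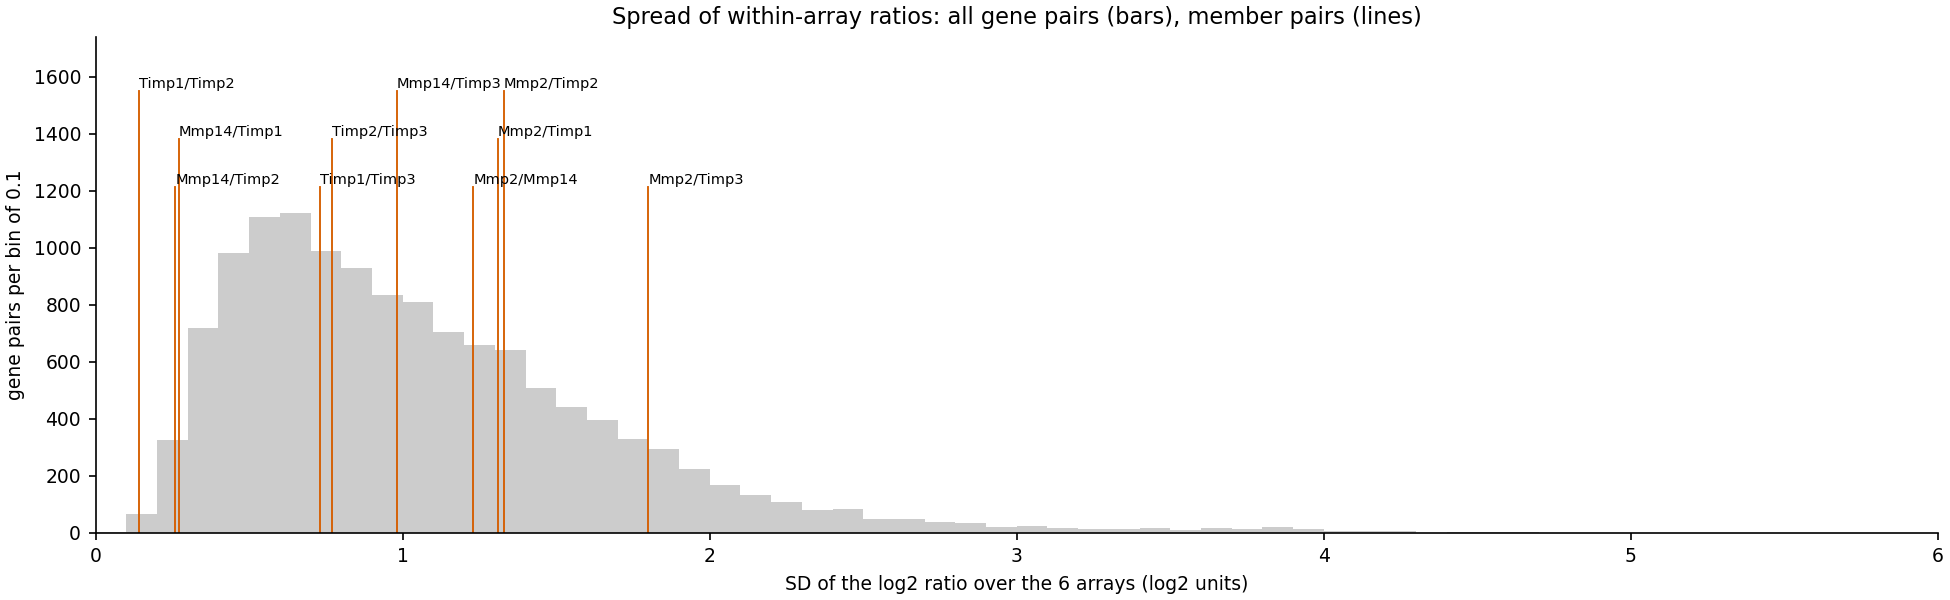
Number of gene pairs (vertical axis) by the SD of their log2 ratio over the 6 arrays (horizontal axis, log2 units), for all 13041 pairs as grey bars, with the 10 member pairs as orange lines. Timp1 to Timp2 lies at the left end with 14 pairs below it, and Mmp2 to Timp3 (SD 1.80) lies farthest right of the member pairs.

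Correlation of median-centred levels over the 6 arrays was tested for all gene pairs by permuting 1 gene over its 720 possible orders (exact, two-sided), and adjusted by Benjamini and Hochberg over the 13041 pairs. Among the 10 pairs of the 5 members, 4 had an unadjusted exact p under 0.05, 3 of them positive and 1 negative. Over all pairs the share was 19.9%, with 11.5% positive and 8.44% negative. By Spearman's rho 1 of the 10 pairs passed, against 13.7% of all pairs. After adjustment 0 of the 10 passed by either measure, and 0.00% of all pairs did, the smallest adjusted p of any pair being 0.122 for Pearson's r and 0.141 for rho. The median r was 0.19 over the member pairs and 0.10 over all pairs.

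Timp1 and Timp2 moved most closely together. Pearson's r was 0.98 (exact permutation p of 0.00139, the smallest that 720 pairings can give, or 0.122 adjusted) and Spearman's rho 1.00 (exact permutation p of 0.00278, or 0.141 adjusted). This rho depends on the order of replicates 1 and 2, on which the printed Timp2 levels were equal. With the 2 most extreme Timp1 samples (replicates 3 and 6) left out, r was again 0.98. Of all gene pairs, 53 had a higher r.

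Mmp14 moved with both of these inhibitors. Its r with Timp2 was 0.89 (exact permutation p of 0.025, or 0.191 adjusted), and with Timp1 it was 0.88 (exact permutation p of 0.0292, or 0.203 adjusted). Spearman's rho was 0.77 for each (exact permutation p of 0.103, or 0.377 adjusted). With the 2 most extreme Mmp14 samples (replicates 3 and 4) left out, r was 0.70 with Timp2 and 0.60 with Timp1, so that these relations rested in part on those samples. After quantile normalization r with Timp2 was 0.77 (exact permutation p of 0.0639).

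Mmp2 and Timp3 moved in opposite directions, with r = -0.87 (exact permutation p of 0.0278, or 0.200 adjusted) and rho = -0.49 (exact permutation p of 0.356, or 0.635 adjusted). Replicates 1 and 6 carried this relation, and with both left out r was 0.56. On replicates 2 to 5 Mmp2 lay only between -2.19 and -2.06, at 1.32 to 2.79 times the noise bound. An r of Mmp2 over those arrays, here and below, therefore does not show an opposite relation. Without replicate 6 alone the r of Mmp2 with Timp3 was -0.54, and in deposited units it was -0.09. Mmp2 and Timp2, partners in activation at the protein level, had r = -0.30 (exact permutation p of 0.625, or 0.801 adjusted) and rho = 0.09 (exact permutation p of 0.919, or 0.969 adjusted), with r = 0.61 without replicate 6. The 6 pairs past no threshold had r between -0.42 and 0.43. Their p-values do not show that these genes were unrelated.

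The brightness of the arrays moved with Timp3 and less clearly with Mmp2. Against the log2 summed intensity, Timp3 had r = 0.83 (exact permutation p of 0.0361, or 0.138 adjusted over 162 genes) and rho = 0.94 (exact permutation p of 0.0167, or 0.117 adjusted). Mmp2 had r = -0.86 (exact permutation p of 0.0569, or 0.154 adjusted) and rho = -0.60 (exact permutation p of 0.242, or 0.384 adjusted). Without replicates 1 and 6 these r were 0.68 and 0.40. For Mmp14, Timp1 and Timp2, r was -0.22, 0.09 and 0.05, with exact permutation p of 0.715, 0.907 and 0.939 (adjusted p = 0.797, 0.960 and 0.963). Of all genes, 34.0% had an unadjusted p under 0.05 in this comparison. The part of brightness in the pattern of Timp3 and Mmp2 was not tested.

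The genes most like each member, by Pearson's r over the 6 arrays among all 162 genes, fell into different sets. For Timp1 they were Timp2, then Fn1 (r = 0.95, exact permutation p of 0.00417, or 0.133 adjusted), which encodes the matrix protein fibronectin, and Cd34 (r = 0.94, exact permutation p of 0.00833, or 0.145 adjusted), a surface protein of endothelium and progenitor cells. Timp2 had the same neighbours, Timp1, Fn1 (r = 0.93, exact permutation p of 0.00556, or 0.136 adjusted) and Cd34 (r = 0.92, exact permutation p of 0.0125, or 0.157 adjusted). Spearman's rho with Fn1 was 0.94 for each inhibitor (exact permutation p of 0.0167, or 0.191 adjusted), and with Cd34 0.89 (exact permutation p of 0.0333, or 0.244 adjusted). Fn1, a substrate of metalloproteinases, stood at 2.23, 1.97, 3.09, 2.64, 2.36 and 1.37 on replicates 1 to 6, highest and lowest on the same arrays as Timp1 and Timp2. Fn1 had a second, dimmer probe, which was not above 0 on all arrays and was not used.

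For Mmp14 the nearest genes were Cdh5, the cadherin of endothelial junctions (r = 0.90, exact permutation p of 0.0639, or 0.273 adjusted), the growth factor Tgfb1 (r = 0.89, exact permutation p of 0.00972, or 0.151 adjusted) and Timp2. Spearman's rho was 0.60 for Cdh5 (exact permutation p of 0.242, or 0.545 adjusted) and 0.89 for Tgfb1 (exact permutation p of 0.0333, or 0.244 adjusted). For Mmp2 they were the membrane ligand Efnb1 (r = 0.93, exact permutation p of 0.0333, or 0.211 adjusted), the glucose transporter Slc2a3 (r = 0.89, exact permutation p of 0.0542, or 0.255 adjusted) and the fat cell regulator Pparg (r = 0.88, exact permutation p of 0.075, or 0.294 adjusted). Their rho was 0.43, 0.54 and 0.26. These likenesses rested on replicates 1 and 6, without which r was -0.98, -0.08 and -0.81. Mmp2 hardly varied on the arrays left, so these r do not show opposite relations.

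For Timp3 the nearest genes were Myh1, the fast IIx myosin heavy chain of muscle fibres (r = 1.00, exact permutation p of 0.00139, or 0.122 adjusted), Mdh2, a mitochondrial malate dehydrogenase (r = 0.97, exact permutation p of 0.00139, or 0.122 adjusted), and the fatty acid binding protein Fabp4 (r = 0.97, exact permutation p of 0.00278, or 0.122 adjusted). The first p-value is the smallest that the pairings can give. Spearman's rho was 1.00 for Myh1 and Mdh2 (exact permutation p of 0.00278, or 0.141 adjusted) and 0.94 for Fabp4 (exact permutation p of 0.0167, or 0.191 adjusted). Myh1 stood at 6.43, 5.95, 6.01, 5.81, 5.23 and 4.71 on replicates 1 to 6, in the same order as Timp3. After quantile normalization the r of Timp3 with Myh1 was 0.33, and that with Mdh2 was 0.96.

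**Figure D4:**
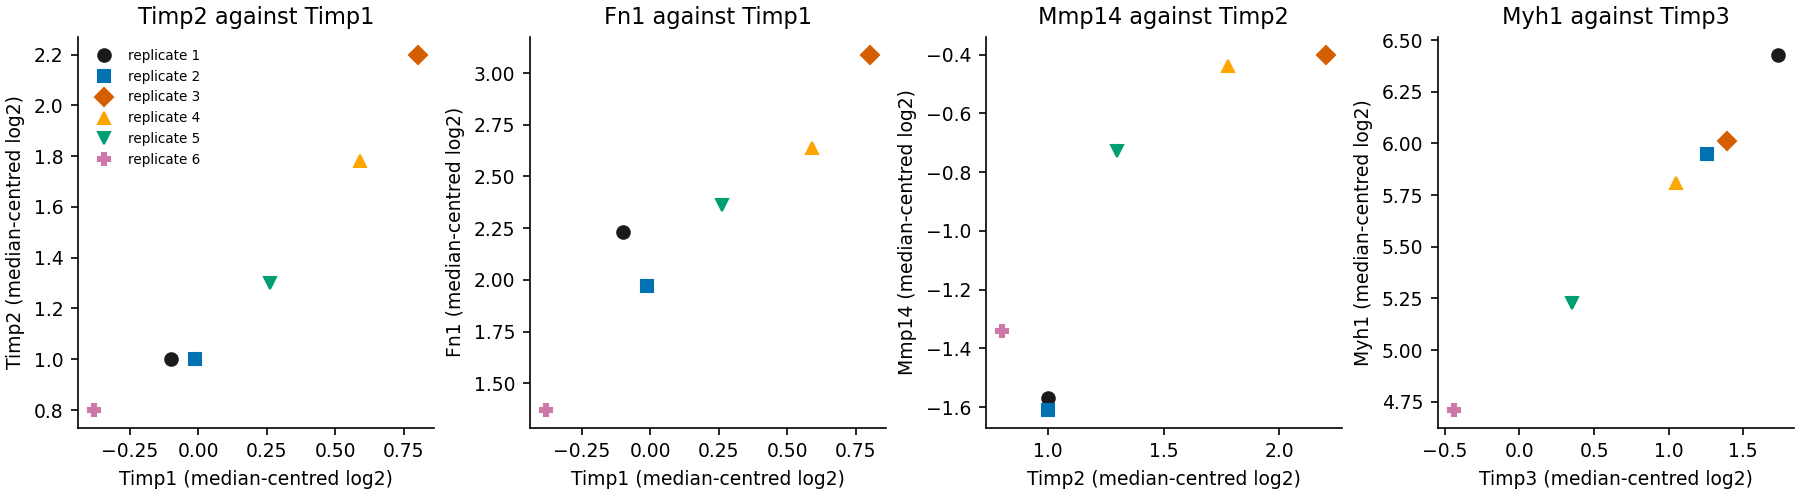
Median-centred log2 levels of gene pairs, 1 point per array. Timp2 and Fn1 against Timp1 and Mmp14 against Timp2 run from replicate 6 or replicates 1 and 2 at the lower end to replicate 3 at the upper end, while Myh1 against Timp3 runs from replicate 6 to replicate 1. Axes do not start at 0 and differ between panels.

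Marker genes of other cells were set beside these patterns. Timp3 was positively correlated, at an unadjusted exact p under 0.05, with 6 of 7 fibre markers, whereas Timp1, Timp2 and Mmp14 were with 0 of 7 in either direction. Mmp2 was negatively correlated with Myh7 and Myh1, at r = -0.78 and -0.87. Without replicates 1 and 6 these r were 0.81 and 0.55, over arrays on which Mmp2 hardly varied. Of all 161 other genes, 30.4% were positively and 14.9% negatively correlated with Timp3 at that threshold. The share of the summed intensity (28S left out) that fibre markers held ran from 11.3% on replicate 5 to 18.6% on replicate 1. Of the 5 endothelial markers (Kdr, Flt1, Tek, Pecam1 and Cdh5), 0 passed with Timp1, Timp2 or Mmp14, where few genes of any kind passed (4.35%, 5.59% and 3.73% of all other genes in the positive direction). Flt1, a receptor for vascular growth factors, was the 1 endothelial marker that passed with Timp3, at r = -0.90 (exact permutation p of 0.0167, or 0.168 adjusted) and -0.81 without replicates 5 and 6. The share of the endothelial markers ran from 0.294% to 0.882%. Of the 2 markers of fibroblasts and mural cells, Pdgfra and Pdgfrb, 0 passed with any member, with a share from 0.059% to 0.145%. The adipocyte markers Fabp4 and Pparg held 0.221% to 0.478%. They went opposite ways on replicate 6, the array on which Mmp2 was high, where Pparg had its highest deposited intensity (0.0345) and Fabp4 its lowest log2 level (1.22). Fabp4 had r = -0.89 with Mmp2 (exact permutation p of 0.0181, or 0.173 adjusted), and 0.00 without replicates 1 and 6. The endothelial, mural and adipocyte shares were highest on replicate 6, as were those of the plasminogen, matrix and regulator lists, so this was not particular to these cells. The array held 0 of the 4 nerve markers. The part of cell makeup in the members' levels was not tested.

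Other genes of matrix remodelling showed how far these patterns extended. Of 115 pairs of a member with a gene of the remodelling lists, 17 (14.8%) had an unadjusted exact p under 0.05, against 19.9% of all gene pairs, with 12 positive and 5 negative. After adjustment 0 passed, with adjusted p between 0.122 and 0.241 for these 17. By Spearman's rho 8 of the 17 had an unadjusted p under 0.05. Of the 23 list genes, Timp3 was positively correlated with 7 and negatively with 1. Over all 161 other genes the shares for Timp3 were 30.4% positive and 14.9% negative, so these counts do not set the list genes apart. Timp1 and Timp2 were each positively correlated with 2 and negatively with 0, and Mmp14 positively with 1 and negatively with 0. Mmp2 was positively correlated with 0 and negatively with 4. Over all 161 other genes the positive and negative shares were 4.35% and 0.621% for Timp1, 5.59% and 0.00% for Timp2, 3.73% and 0.00% for Mmp14, and 4.35% and 19.3% for Mmp2. Timp1, Timp2 and Mmp14 thus moved with few genes of any kind, while Timp3 moved with many.

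Among matrix substrates, 12 were on the array and 11 above 0 on all arrays, and they had a median SD of 0.67. Fn1 moved with Timp1 and Timp2, as given above. Lamc1, a laminin chain of the basement membrane, had r = 0.94 with Timp3 (exact permutation p of 0.00694, or 0.140 adjusted) and -0.84 with Mmp2 (exact permutation p of 0.0458, or 0.238 adjusted). Without replicates 1 and 6 the latter was 0.80, over arrays on which Mmp2 hardly varied. The matrix glycoprotein Thbs1 had r = 0.86 with Timp3 (exact permutation p of 0.0389, or 0.222 adjusted), which rested on replicates 5 and 6 (r = -0.18 without them). Among the 8 regulators on the array, 5 were above 0 on all arrays. Tgfb1, a growth factor that induces matrix genes, had r = 0.87 with Timp2 (exact permutation p of 0.0361, or 0.217 adjusted) and 0.83 with Timp1 (exact permutation p of 0.0472, or 0.241 adjusted), beside its 0.89 with Mmp14. Without replicates 3 and 4 its r with Timp2 was 0.41. The AP-1 subunits Fosl1 and Jund had r = 0.95 and 0.88 with Timp3 (exact permutation p = 0.00972 and 0.0208, adjusted p = 0.151 and 0.181). Without replicates 5 and 6 these were 0.50 and 1.00. Fosl1 exceeded the noise bound on 4 of 6 arrays, with 0.0023 and 0.0002 on replicates 5 and 6 under it, and its r with Mmp2 was -0.90 (exact permutation p of 0.0264, or 0.195 adjusted), or 0.10 without replicates 1 and 6.

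The plasminogen system, whose protease plasmin can activate metalloproteinase precursors, was dim. All 4 of its genes on the array (Plau, Plat, Plaur and Plg) were above 0 on all arrays, and 0 of 4 were above the noise bound on all arrays. The urokinase receptor gene Plaur had r = 0.96 with Timp3 (exact permutation p of 0.00278, or 0.122 adjusted), and Plg, the plasminogen gene, r = -0.86 (exact permutation p of 0.025, or 0.191 adjusted). Both genes were above the bound on 4 of 6 arrays, so these values partly follow noise.

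The array held 7 other genes of the metalloproteinase and ADAM families, of which 3 were above 0 on all arrays and 1, the stromelysin Mmp10, above the noise bound on all arrays. Mmp10 had deposited intensities of 0.0867, 0.0244, 0.0112, 0.0065, 0.0115 and 0.0013 on replicates 1 to 6, with r = 0.83 with Timp3 (exact permutation p of 0.0417, or 0.229 adjusted) and -0.89 with Mmp2 (exact permutation p of 0.0444, or 0.234 adjusted). Mmp3, Mmp8 and Mmp12, a stromelysin, the neutrophil collagenase and the macrophage elastase, were each above 0 on 1 of 6 arrays and above the bound on 0, as Mmp9 was. Mmp11 exceeded the bound on 4 of 6 arrays. Adam2, a surface protein of germ cells, also exceeded it on 4 of 6 arrays and had r = 0.95 with Timp3 (exact permutation p of 0.00417, or 0.133 adjusted) and -0.94 with Mmp2 (exact permutation p of 0.0167, or 0.168 adjusted). Without replicates 1 and 6 its r with Mmp2 was -0.02, and that of Mmp10 was -0.63. Without replicate 6 alone the r of Mmp10 was 0.48 with Timp3 and -0.54 with Mmp2. Adam8, an ADAM protease of leukocytes, was above the bound on 0 of 6 arrays. The family genes without a correlation were named after their values were seen.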

How the data were processed

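RNA from 6 soleus samples of 1 group was measured on 1 array each. The deposited table holds 1 intensity per probe and array. Per the labels' protocols, RNA was isolated from cryosections with a column kit. The scanner, background method and normalization are not given in the sources used here. Some deposited intensities are below 0, and totals differ between arrays; how the authors corrected or scaled them was not tested. The number of arrays limits precision.

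The platform annotation gave 205 of 223 probes 1 gene each and left 18 unnamed. Of genes with 2 probes, the brighter was used. Probes above 0 on all arrays were log2-transformed with no pseudocount and median-centred. Correlations were computed with numpy 2.4.6 and pandas 2.3.3 in Python 3.11.15, with exact permutation p-values over all gene pairs, tested on simulated data. Ratios between probes were compared only across arrays. The members and lists were chosen with earlier results of these data known. The text names the members, the 3 genes most like each, and up to 4 list genes per list with an unadjusted p under 0.05. Comparisons with array brightness, the promoter motifs and the noise allowances were added after the values had been seen. Alternatives tried were deposited units, quantile normalization, 28S scaling, 3 treatments of values near noise, Spearman's rho, and each array left out.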

Additional observations from a re-analysis of the deposited data

Results flagged for a closer look

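Replicate 6 stood apart for Mmp2. A set of 6 values was marked where the highest or lowest value lay farther from its neighbour than Dixon's critical value, taken as a share of the whole range, allows. Of 16 sets tested (member levels, Mmp9 intensity and member ratios), 4 were marked, and all 4 contain Mmp2. Chance marks about 1 set in 20, and sets that share Mmp2 are not independent. The gap over the range was 0.707 for the median-centred level of Mmp2, 0.656 for its log2 ratio to Mmp14, 0.795 for its ratio to Timp1 and 0.706 for its ratio to Timp2. For its ratio to Timp3 it was 0.591, under the critical value.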

How the results depend on the processing

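The correlation of Timp1 with Timp2 kept its direction and an unadjusted p under 0.05 in all 13 alternatives. Its r or rho lay between 0.97 and 1.00, and the SD of the log2 ratio of Timp1 to Timp2 between 0.08 and 0.16. Setting values to the noise bound could not change Timp1, Timp2 or Mmp14, which exceeded it on every array. Deposited units and 28S scaling could not change a ratio within an array. Under both, more of all gene pairs passed too, as given below. The alternatives are therefore not independent checks. The correlation of Mmp14 with Timp1 kept its direction in all 13 and a p under 0.05 in 7 (0.77 to 0.96), and that with Timp2 in 5 (0.77 to 0.97), the rest being Spearman's rho, arrays left out and, for Timp2, quantile normalization. The correlation of Mmp2 with Timp2 lay between -0.56 (without replicate 1) and 0.61 (without replicate 6, a reversal) with an array left out, and reversed to 0.09 by Spearman's rho, with no p under 0.05. The number of member pairs with an unadjusted p under 0.05, 4 of 10, was 6 in deposited units, 5 after 28S scaling, 2 after quantile normalization, 1 by Spearman's rho, and 1 to 2 with an array left out, where 5 arrays raise the p that a given r can reach. Over all gene pairs the share was 19.9% as reported, 42.8% in deposited units, 35.9% after 28S scaling, 15.2% after quantile normalization, 13.7% by rho, 20.1% with only probes above the noise bound and 9.26% to 15.5% with an array left out. The number of list pairs, 17 of 115, was 51 in deposited units, 37 after 28S scaling, 11 by Spearman's rho, 8 of 52 with only probes above the noise bound, and 8 to 12 with an array left out. The members' median SD of 0.56 was 0.99 in deposited units and 0.86 after 28S scaling, and 0.51 to 0.61 with an array left out. The median SD of the protease to inhibitor ratios, 1.14, was 0.76 with values set to the noise bound, which brings in Mmp9, 0.27 with only probes above it, which drops Mmp2, and 0.36 to 1.25 with an array left out. The cause of these shifts was not tested beyond the change in genes or arrays that each alternative makes. Signal over background limits Mmp2 and Mmp9. No paired analysis was possible because there is 1 group.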
